A study of Arabidopsis thaliana with 6 samples.

Results

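The serine carboxypeptidase-like (SCPL) genes of Arabidopsis thaliana encode a family of secreted and vacuolar enzymes. Members were taken as the probe sets that name 1 gene whose symbol in the platform annotation is SCPL followed by a number, with the brightest probe set kept for each gene. This gave 29 genes, each with 1 probe set, of 13356 genes named on the array and of 51 genes that the gene table used here lists as SCPL. The rule reads only the gene symbols, since no gene had a second probe set to choose from, but the family was picked with earlier results of these data known. RNA came from 10-day-old whole seedlings of the Columbia accession (Col-0) grown on plates under continuous light, with 3 wild type samples and 3 from sdg2 mutants, each on 1 single-colour Affymetrix array. All 6 samples share accession, age and growth conditions. The labels name no sdg2 allele and describe the samples as biological replicates without saying how plates or cultures were divided, so p-values cover only the spread among the samples at hand, part of which may be technical. SDG2 adds methyl groups to lysine 4 of histone H3. The probe set of the SDG2 gene was not analysed here, so the genotype labels were not checked against the mutated gene.

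SCPL proteins have the alpha/beta hydrolase fold and a serine, aspartate and histidine catalytic triad, enter the secretory pathway through a signal peptide, and are commonly glycosylated. Classical members are carboxypeptidases, which remove single amino acids from the carboxyl end of proteins and peptides and take part in protein turnover in the vacuole and outside the cell. A plant-specific branch has instead become acyltransferases that use glucose esters as donors. SNG1 (SCPL8), which makes sinapoylmalate in leaves, and SNG2 (SCPL19), which makes sinapoylcholine in seeds, are known examples in Arabidopsis. SNG1, SNG2 and the extracellular carboxypeptidase BRS1 (SCPL24), known from brassinosteroid signalling, were not analysed here. Of the 29 genes, 2 carry numbers from 1 to 19, the range in which SNG1 and SNG2 fall, and 27 carry numbers from 20 upward. A further 2 probe sets list several genes, among them SCPL members, and were not used.

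The 6 arrays had similar distributions of values. The median log2 value lay between 5.90 and 5.96, and over all probe sets Pearson's r was 0.997 to 0.998 within a genotype and 0.970 to 0.971 between genotypes. Probe sets without detectable transcript form a lower mode, found at 2.27 to 2.30 depending on the array. The 3' minus 5' signal of the ubiquitin control probe sets, a sign of RNA integrity, had a wild type mean of 0.49 ± 0.03 (SD, n = 3) and an sdg2 mean of 0.68 ± 0.01, while those of actin and GAPDH differed by -0.03 and 0.00 (exact permutation tests, two-sided p = 0.1, 0.6 and 1, where 3 against 3 cannot go below 0.1). Of the tissue marker lists, 3 of 6 green tissue genes and 3 of 6 root genes were measured, and none of the seed or pollen and flower genes. The photosynthesis genes RCA and LHCB4.1 stood at 14.0 to 14.3 in both genotypes with no change past the threshold, and LHCB4.2 fell by 0.77. Of the root genes, EXPA18 fell by 0.33. PYK10 fell by 0.33 too (adjusted p = 0.0423), a call lost under 7 alternative settings, among them quantile normalization (change -0.23, adjusted p = 0.126) and the fits without wild type replicate 2 (adjusted p = 0.120) or 3 (adjusted p = 0.122) or sdg2 replicate 1 (adjusted p = 0.109) or 3 (adjusted p = 0.113). EXPA7 had a change of -0.75 short of the threshold (adjusted p = 0.128), which passed with the replicate block (adjusted p = 0.0273), the filter on low signal (adjusted p = 0.0286), array weights (change -1.09, adjusted p = 0.0302) and without wild type replicate 3 (change -1.02, adjusted p = 0.0363). The mean log2 value over the 3 green tissue genes was 14.11 to 14.22 on the wild type arrays and 13.93 to 14.00 on the sdg2 arrays. That over the 3 root genes was 8.69 to 9.01 and 8.31 to 8.50, and the groups did not overlap in either list. The green tissue mean was lower in sdg2 through LHCB4.2 alone, as RCA and LHCB4.1 had changes of 0.09 and 0.08. The part of tissue make-up or RNA integrity in the results below was not tested. In whole seedlings, fewer cells of a type and less RNA per cell cannot be told apart.

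The 29 genes fell into a set with clear signal and a set at the background. A mean of at least 5 over the 6 arrays was found for 14 of them, or 48.3%, against 57.1% of all probe sets. Another 13, or 44.8%, had a mean below 3, against 31.9% of all probe sets. Only SCPL28 and SCPL40 lay between these values. GCRMA gives no call of presence, and a value at the lower mode says only that the transcript was not detectable with that probe set.

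**Figure D1:**
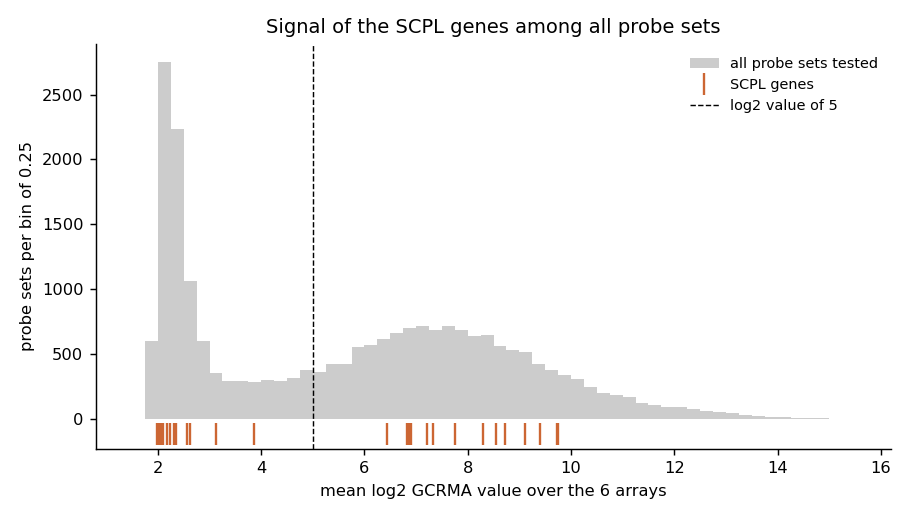
Distribution of the mean log2 GCRMA value over the 6 arrays for all 22746 probe sets tested (grey, probe sets per bin of 0.25), with the 29 SCPL genes as vertical ticks under the axis and the log2 value of 5 as a dashed line. The ticks form a cluster of 13 genes below 3 and a spread-out group of 14 above 5, with 2 genes between.

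The question of the comparison is which SCPL transcripts differ between sdg2 mutant and wild type seedlings. In sdg2, 6 SCPL genes rose, 3 fell and 20 did not pass an adjusted p of 0.05 in limma. SCPL49, annotated as carboxypeptidase Y, and SCPL35 rose most, each by nearly 1.5 on the log2 scale, and SCPL31 and SCPL50 fell most. These 9 changed genes are 31.0% of the 29, while 36.6% of all 22746 probe sets were called, 19% higher and 17.6% lower. The 36.6% is not a like background, since all 29 come from probe sets naming 1 gene. Of the 13513 such probe sets, 4114 were called when tested alone. The share of SCPL genes that changed lay near either background. Among the changed SCPL genes 4 reached 2-fold, 2 higher and 2 lower, where 10.6% of all probe sets passed this bar. All 9 changed genes are among the 14 with a mean of at least 5, and 57.2% of all probe sets with such a mean were called. The groups did not overlap in 11 of these 14, against 69.1% of all probe sets with such a mean. The median change over the 29 genes was -0.0064, against -0.010 over all probe sets, and single changes ran from -1.77 to 1.49. That median is the value of SCPL44, a gene at the background. Over the 14 genes with a mean of at least 5 the median was 0.29, against 0.031 over all such probe sets. Of these 14 changes 11 were above 0 and 3 below.

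**Figure D2:**
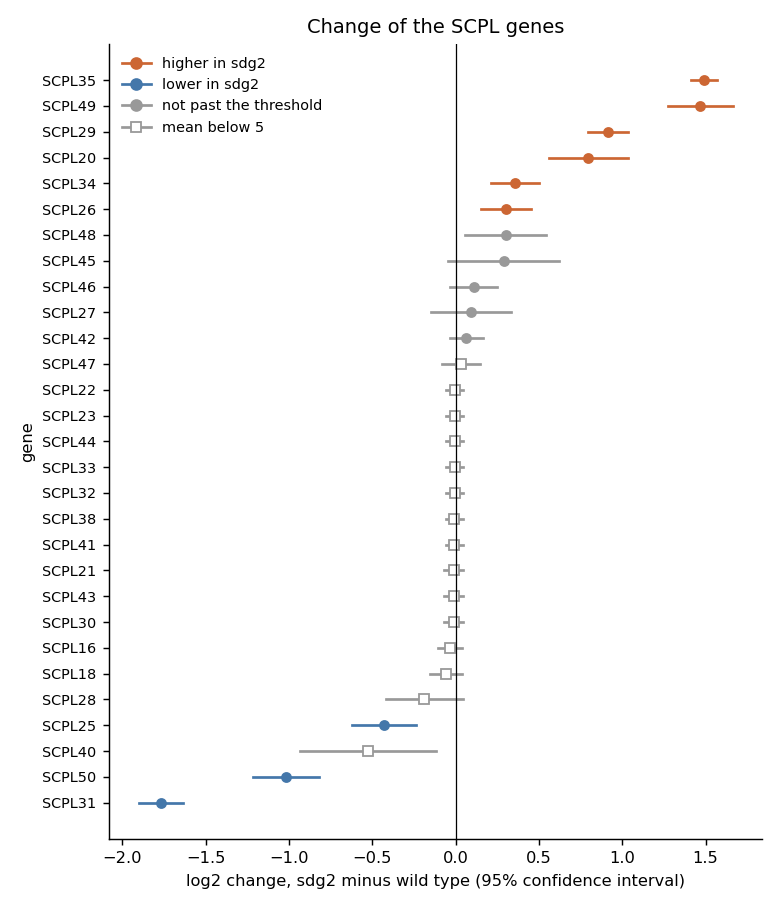
Log2 change of each of the 29 SCPL genes, sdg2 minus wild type, with its 95% confidence interval from limma. Filled circles are genes with a mean of at least 5 and open squares genes below it. The 6 genes higher in sdg2 lie from 0.30 to 1.49, the 3 lower ones from -1.77 to -0.43, and the squares of the 13 genes with a mean below 3 sit at 0.

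SCPL35 (AT5G08260) gave log2 values of 8.67, 8.63 and 8.69 in the 3 wild type samples and of 10.11, 10.17 and 10.16 in the 3 sdg2 samples. The groups were far apart, with a gap of 1.42 between the highest wild type and the lowest sdg2 value, and the spread within each was the same small size (SD 0.03 in both, n = 3). Its mean rose from 8.66 to 10.15, a change of 1.49 ± 0.03 (SE) or 2.80-fold (adjusted p = 1.28e-05). This change exceeded in size those of 94.8% of all probe sets, and by p-value it ranked 84 of 22746. The gene table gives SCPL35 no name beyond its family number.

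SCPL49 (AT3G10410) is listed in the gene table as CPY, carboxypeptidase Y, after the vacuolar protease of that name in the yeast Saccharomyces cerevisiae. It gave values of 8.83, 9.05 and 9.11 in wild type and of 10.45, 10.48 and 10.46 in sdg2. All sdg2 samples lay above all wild type samples, by at least 1.34, and the wild type samples were the more spread out (SD 0.14 against 0.02, n = 3 each). The change was 1.47 ± 0.08 or 2.77-fold (adjusted p = 0.000145). SCPL35 and SCPL49 thus had changes that differed by less than their errors, from probe sets whose own levels cannot be set against each other.

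A smaller rise was found for SCPL29 (AT4G30810), which gave values of 8.24, 8.27 and 8.29 in wild type and of 9.26, 9.20 and 9.10 in sdg2. The change was 0.92 ± 0.05 or 1.89-fold (adjusted p = 0.000139), and the groups were separated by 0.80. SCPL20 (AT4G12910) gave 6.65, 6.33 and 6.39 in wild type and 7.28, 7.18 and 7.29 in sdg2. Wild type replicate 1 was the highest of its group but still 0.54 below the lowest sdg2 sample. The change of SCPL20 was 0.80 ± 0.09 or 1.74-fold (adjusted p = 0.00197).

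The rises of SCPL34 and SCPL26 were slight. SCPL34 (AT5G23210) gave values of 8.34, 8.39 and 8.36 in wild type and of 8.60, 8.76 and 8.80 in sdg2, a change of 0.36 ± 0.06 or 1.28-fold (adjusted p = 0.00617). SCPL26 (AT2G35780) gave 9.55, 9.53 and 9.71 in wild type and 9.93, 9.85 and 9.92 in sdg2, a change of 0.30 ± 0.06 or 1.23-fold (adjusted p = 0.0120). In both the groups did not overlap, with gaps of 0.21 and 0.14, which are of the order of the spread within a group.

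**Figure D3:**
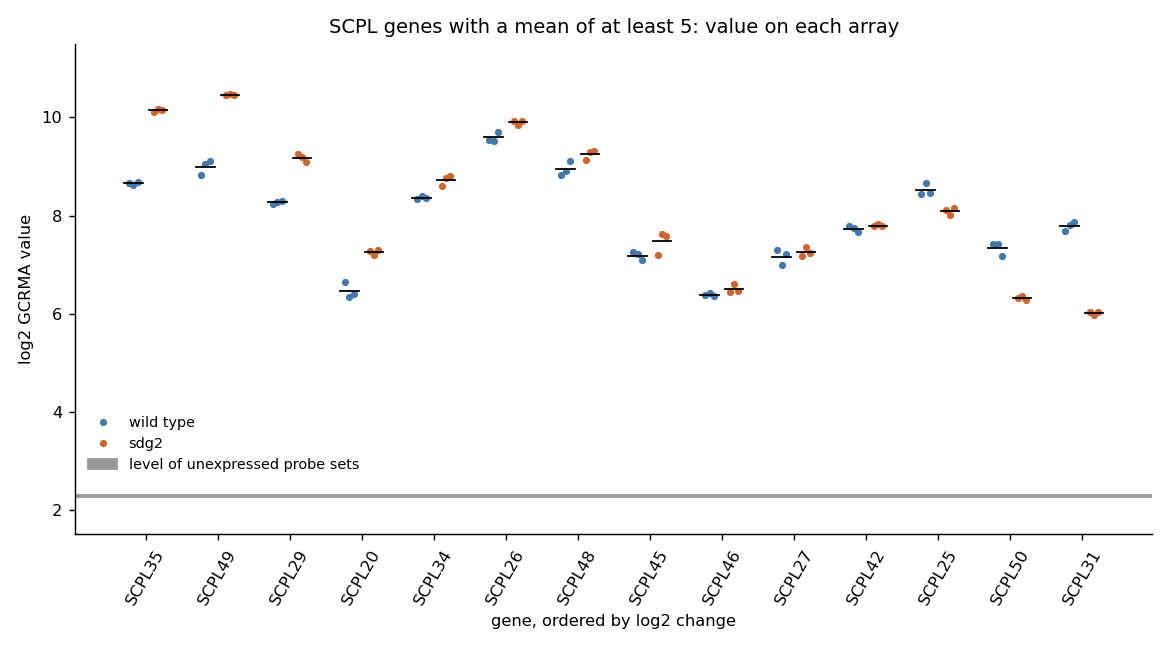
Log2 GCRMA value on each array for the 14 SCPL genes with a mean of at least 5, ordered by their log2 change from the largest rise to the largest fall. Points are the 3 wild type and 3 sdg2 samples, short lines are group means, and the grey band is the lower mode of 2.27 to 2.30. The point clouds of SCPL35 and SCPL49 on the left and of SCPL50 and SCPL31 on the right are well separated. Those of the other changed genes have gaps from 0.80 for SCPL29 to 0.14 for SCPL26. The clouds of the 5 genes that did not pass touch or overlap.

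Among the genes that fell, SCPL31 (AT1G11080) gave values of 7.69, 7.80 and 7.86 in wild type and of 6.04, 5.97 and 6.04 in sdg2. The lowest wild type sample lay 1.65 above the highest sdg2 sample. It fell by 1.77 ± 0.05, to 29.3% of the wild type value, a 3.41-fold difference (adjusted p = 2.97e-05) and the largest change of the 29 genes in either direction. By size of change it ranked 810 of 22746. The sdg2 values stayed well above the lower mode, so this fold was not taken against the background.

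SCPL50 (AT1G15000) gave values of 7.43, 7.41 and 7.17 in wild type and of 6.32, 6.35 and 6.28 in sdg2. Wild type replicate 3 was the lowest of its group, 0.82 above the highest sdg2 sample. The gene fell by 1.02 ± 0.08, to 49.4% of the wild type value (adjusted p = 0.000450). SCPL25 (AT3G02110) gave 8.44, 8.66 and 8.46 in wild type and 8.11, 8.01 and 8.15 in sdg2. It fell by 0.43 ± 0.08, to 74.3% of the wild type value (adjusted p = 0.00862), with a gap of 0.28 between the groups. The rises and falls were thus found within the family side by side, and the 9 changed genes are spread over all 5 nuclear chromosomes, as are the 29.

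A further 5 genes had clear signal and did not pass. SCPL48 (AT3G45010) gave 8.82, 8.91 and 9.12 in wild type and 9.13, 9.29 and 9.33 in sdg2. Its change of 0.30 had a 95% confidence interval from 0.06 to 0.54 (adjusted p = 0.0647). The groups were separated by only 0.01, and without wild type replicate 3, the highest of its group, the change was 0.38 and passed (adjusted p = 0.0238). SCPL45 (AT1G28110) gave 7.25, 7.21 and 7.09 in wild type and 7.20, 7.62 and 7.59 in sdg2, where replicate 1 lay inside the wild type range. Its change of 0.29 had an interval from -0.04 to 0.62 (adjusted p = 0.162), and without sdg2 replicate 1 it was 0.42 and passed (adjusted p = 0.0106).

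The other 3 of these genes had intervals that stay close to 0. SCPL46 (AT2G33530) had group means of 6.39 and 6.50 and a change of 0.11, with a 95% confidence interval from -0.03 to 0.25. SCPL27 (AT3G07990) had means of 7.16 and 7.25 and a change of 0.09, with an interval from -0.15 to 0.33. SCPL42 (AT5G42240) had means of 7.73 and 7.79 and a change of 0.06, with an interval from -0.03 to 0.16. A 2-fold change lies outside each of these intervals. Smaller changes within them are not excluded with 3 samples per group.

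Of the 15 genes with a mean below 5, none passed the threshold in limma, and SCPL40 alone had an unadjusted p below 0.05. SCPL40 (AT3G63470) gave 3.35, 3.71 and 3.10 in wild type and 2.81, 2.85 and 2.93 in sdg2, near the lower mode. The groups did not overlap, with a gap of 0.17, and the change of -0.53 ± 0.16 just missed the threshold (adjusted p = 0.0558). Without wild type replicate 2, the highest of its group, the change was -0.37 and passed (adjusted p = 0.0452), and without wild type replicate 3 it was -0.67 and passed (adjusted p = 0.0204). SCPL28 (AT2G35770) gave 3.93, 3.80 and 4.13 in wild type and 3.79, 3.78 and 3.73 in sdg2, which left its change of -0.19 short of the threshold (adjusted p = 0.186).

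The other 13 dim genes are SCPL16, SCPL18, SCPL21, SCPL22, SCPL23, SCPL30, SCPL32, SCPL33, SCPL38, SCPL41, SCPL43, SCPL44 and SCPL47. Their group means ran from 1.97 to 2.65 and their changes from -0.06 to 0.03, with adjusted p between 0.312 and 0.862. SCPL16 and SCPL18, the members with numbers below 20, are both in this set. Their SDs were at most 0.08, since GCRMA compresses values at the background, so the narrow intervals describe the probe sets and do not bound a change in transcript amount. In all, the groups did not overlap in 13 of the 29 genes, or 44.8%, against 48.3% of all probe sets.

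**Figure D4:**
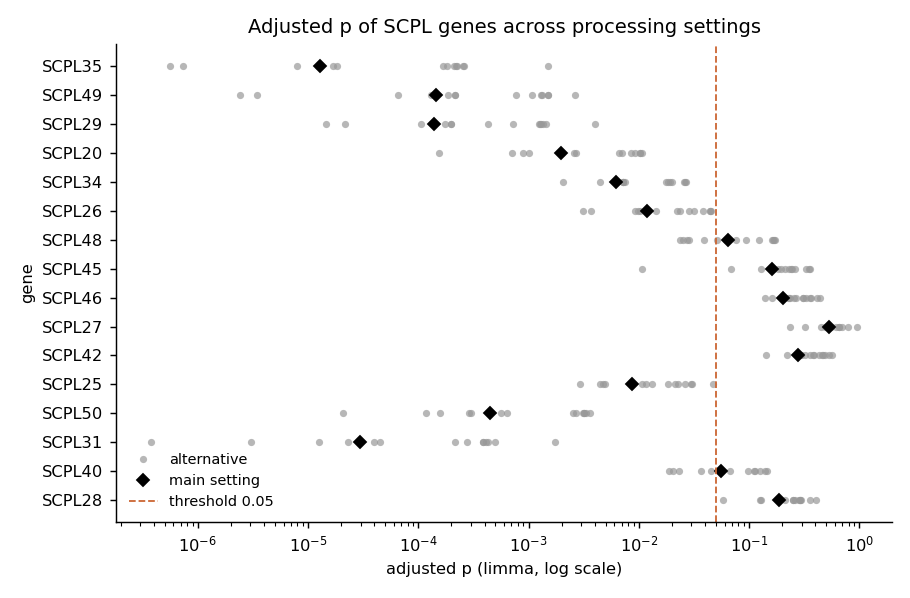
Adjusted p of the 14 SCPL genes with a mean of at least 5, and of SCPL40 and SCPL28, on a log axis. The black diamond is the setting reported here, the grey points are the alternative settings, and the dashed line is the threshold of 0.05. All points of the 9 changed genes lie left of the line, and those of SCPL48, SCPL45 and SCPL40 lie on both sides.

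The 9 calls did not depend on a single setting. Each of the 9 genes kept its direction and passed under all 15 alternative settings tried, and the highest adjusted p was that of SCPL25 with a replicate block (adjusted p = 0.0471). Not all 15 could alter the calls much. Averaging the probe sets of a gene leaves SCPL values as they are, since each gene has 1. Keeping only probe sets naming 1 gene changes only which others are tested. SCPL48 passed under 5 of its 15 alternatives, SCPL40 under 5 of 14 and SCPL45 under 1 of 15. SCPL46, SCPL27, SCPL42, SCPL28 and the 13 genes with a mean below 3 passed under none of theirs.

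Several SCPL genes lie next to each other, and in 2 of 3 such pairs only one gene had clear signal. SCPL22 (AT2G24000) and SCPL23 (AT2G24010) are adjacent and were both at the background, with means over the 6 arrays of 2.03 and 1.97. SCPL28 and SCPL26 are adjacent as well, and SCPL26 was well above the background and rose while SCPL28 was dim, with the values given above. SCPL41 (AT5G42230) and SCPL42 are separated by 2 entries of the gene table, and SCPL41 was at the background with a mean of 2.23 while SCPL42 had clear signal in both genotypes. All 29 probe sets carry the plain suffix that Affymetrix gives to probes designed for a single transcript. Whether they also read transcripts of relatives was not tested.

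The nearest measured genes on either side of the 9 changed SCPL genes were looked up in the gene order of TAIR10.1. Of these 18 flanking genes, 3 changed in the direction of the SCPL gene, 4 in the opposite direction and 11 did not pass. The share called over all probe sets was 36.6%. The flanking genes too come from probe sets naming 1 gene, of which 4114 of 13513 were called when tested alone. None of the 9 flanking genes with no gene between changed in the same direction, and 3 changed in the opposite one. Over all probe sets 19% were called higher and 17.6% lower. Some of the 9 lay near the background, with means over the 6 arrays down to 2.33, and the counts were not tested. The flanking genes that moved with their SCPL gene were AT4G12890, which rose by 1.65 beside SCPL20 from a wild type mean of 2.62 that lies near the background, AT3G10350, which rose by 0.54 on one side of SCPL49 with 6 genes between, and AT1G15010, which fell by 2.71 beside SCPL50. These 3 genes were named after their values were seen.

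The pathway lists put the SCPL genes beside other enzymes of protein turnover and of the glucose ester chemistry that SCPL acyltransferases use. Of 24 listed vacuolar and secreted proteases 10 were measured, and 5 rose, 1 fell and 4 did not pass. Their median change was 0.25, against -0.010 over all probe sets, of which 36.6% were called. The proteases that passed all have a mean of at least 5 over the 6 arrays. Of all probe sets with such a mean 57.2% were called, with a median change of 0.031. Neither background is limited to probe sets naming 1 gene. The largest rises were those of BETAVPE, by 1.34 ± 0.10 from 5.50 to 6.84, and of APA2, by 1.34 ± 0.14 from 5.71 to 7.05. BETAVPE is a vacuolar processing enzyme, a cysteine protease that cleaves after asparagine and matures other vacuolar proteins, and APA2 is an aspartic protease. ALP2, an aleurain-like cysteine protease, fell by 0.59 ± 0.06.

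GAMMAVPE, chosen after its values were seen because it is known to process carboxypeptidase Y in Arabidopsis, gave values of 10.14, 10.11 and 9.94 in wild type and of 11.02, 11.00 and 11.06 in sdg2. It rose by 0.96 ± 0.06 (adjusted p = 0.000252). SCPL49 rose too, as did 5 of the 10 measured proteases, GAMMAVPE among them. A link between GAMMAVPE and SCPL49 was not tested. The groups of GAMMAVPE did not overlap.

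Of 30 genes on the list for sinapate esters and phenylpropanoids 9 were measured. The 9 include AOP3, which is not a gene of this pathway, with a mean of 2.46 over the 6 arrays and a change of 0.05. Of these 5 rose, 0 fell and 4 did not pass, with a median change of 0.83. The share called over all probe sets was 36.6%, 19% higher and 17.6% lower, with a median change of -0.010. This background is not limited to probe sets naming 1 gene, from which the 9 come. The count of 0 falls was also 0 in the unadjusted test, since all 9 changes were above 0. Some of the genes that did not pass lay near the background, with means over the 6 arrays down to 2.38. The direction of their changes does not describe transcript amount. UGT75C1 and UGT79B1, which glycosylate anthocyanins, rose by 3.31 ± 0.34 and 2.70 ± 0.09 from wild type means of 3.00 and 2.14, at or near the background, so these are not measured ratios of amounts. The other 3 genes that passed were named after their values were seen. REF1, the aldehyde dehydrogenase that yields sinapate and ferulate, rose by 0.87 ± 0.03 from 10.22 to 11.09. UGT84A3 and UGT84A4, which form glucose esters of hydroxycinnamates, rose by 0.83 ± 0.09 and 0.88 ± 0.19, the latter from 4.38 to 5.26. They are neighbouring, similar genes, and whether their probe sets read each other's transcripts was not tested. The call for UGT84A4 was lost without wild type replicate 1 (change 0.78, adjusted p = 0.0556). The SCPL genes numbered from 1 to 19 that could be set beside them, SCPL16 and SCPL18, were at the background in both genotypes. Of 10 listed genes of the brassinosteroid receptor module only BRL1 was measured, at 2.41 and 2.52, near the background.

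**Figure D5:**
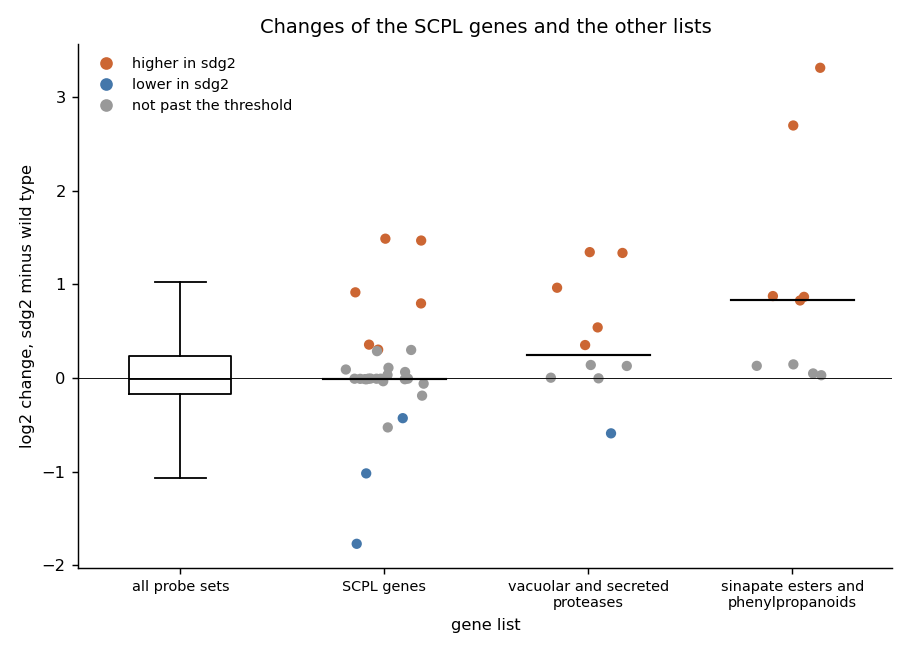
Log2 changes, sdg2 minus wild type, of the 29 SCPL genes and the 10 measured vacuolar and secreted proteases. The last column holds the 9 measured genes listed under sinapate esters and phenylpropanoids, AOP3 among them. Horizontal lines mark the list medians of -0.0064, 0.25 and 0.83. The box shows the quartiles and median of all 22746 probe sets and its whiskers span the fifth to the 95th percentile. The SCPL genes spread to both sides of 0, and the 13 with a mean below 3, at the background, lie on it or close by. The median over the 14 SCPL genes with a mean of at least 5 was 0.29.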

How the data were processed

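The values are the authors' deposited table of 22810 probe sets on 6 Affymetrix arrays, on the log2 scale after GCRMA (background adjustment, quantile normalization and probe summary), named per the submitters' processing notes with neither version nor settings. Array number, 3 per group, limits the precision. The 64 control probe sets were left out, which left 22746: 13513 name 1 gene in the platform annotation, 503 name several and 8730 are unlisted there. All 29 SCPL genes matched NCBI's table of genes (assembly TAIR10.1), used only for names and gene order.

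The test was limma's (version 3.58.1, R 4.3.3; lmFit and eBayes on group means), adjusted by Benjamini-Hochberg across the 22746 probe sets, with calls at an adjusted p below 0.05. The fit was tested on simulated data, where the share of false calls among the calls was above the one the threshold implies, so calls close to it are less certain. Intervals are moderated 95% confidence intervals. Lists were described by counts and medians, with no test. The genes of the SCPL family and the lists were chosen with earlier results of these data known. The naming rule took every SCPL gene, and of other lists at most 2 rises and 2 falls, the largest that passed. The alternatives were a filter keeping probe sets at 5 or more on at least 3 arrays, quantile normalization, median centring, trend and robust eBayes, unmoderated statistics, array weights, only probe sets naming 1 gene, averaging the probe sets of a gene, a replicate block and leaving out each array. Figures were drawn with matplotlib 3.10.9.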

Additional observations from a re-analysis of the deposited data

How the results depend on the processing

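Under the 15 alternatives the number of SCPL genes changed was 9 to 11, and no change past the threshold turned its direction. Leaving out 1 array gave 9 to 11 changed SCPL genes and 7368 to 7565 changed probe sets. With only probe sets naming 1 gene, 4114 of the 13513 tested changed, 1959 higher and 2155 lower. The main fit called 4327 higher and 4000 lower of 22746, so both the share and the balance differed. The SCPL and list genes all come from probe sets naming 1 gene, for which the 36.6% over all probe sets is not a like background. The median over the SCPL genes, and over those numbered from 20 upward, was 0.29 under the filter on low signal, which left 14 genes, and -0.044 with median centring, which moved the median of all probe sets from -0.010 to -0.048. The median over the proteases was 0.54 with the filter, 0.21 with median centring, 0.31 with array weights and 0.23 to 0.29 without 1 array. The median over the sinapate and phenylpropanoid genes was 0.87 with the filter, 0.79 with quantile normalization, 0.79 with median centring, 0.75 with array weights and 0.70 to 0.87 without 1 array. Both groups carry replicate numbers 1 to 3, and the deviations of same-numbered samples correlated at -0.0082, 0.072 and 0.064. Replicates 2 and 3 correlated best with their own number, against -0.082 and -0.062 when crossed with each other. Replicate 1 did not, and the labels name no pairing, so the samples were not taken as pairs. Whether same-numbered samples shared a batch was not tested. With the replicate block 10 SCPL genes and 7865 probe sets changed, SCPL48 being added (adjusted p = 0.0250). The spread between 3 arrays per group limits what could be called, and signal at the background limits what could be measured for 13 SCPL genes.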
